A study of Homo sapiens with 6 samples.

Results

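The 10 genes described here encode interleukin 1 and its relatives (IL1A, IL1B, IL33 and the antagonist IL1RN), interleukin 6-type cytokines (IL6, IL11 and LIF) and colony-stimulating factors (CSF1, CSF2 and CSF3). They were found by symbol: a probe set belonged to the set when the platform annotation gave it 1 of these symbols and no other. Of the 10 genes, 9 had such a probe set, exactly 1 each, among 22411 genes with a probe set of their own. CSF2 had none under this rule, and its expression is not analysed here.

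Expression was measured on 6 Affymetrix arrays of total RNA from U87 MG, an established human glioblastoma line, grown in DMEM with serum and given no treatment. One group of 3 arrays came from cells that stably overexpress GUCY1B3 from the transfected plasmid pCDNA3.1D/V5-His-TOPO. GUCY1B3 encodes a subunit of the nitric oxide receptor, soluble guanylate cyclase. The other group of 3 arrays came from U87 MG cells as control. An empty-vector line is not named in the labels, which also do not say whether the stable cells were 1 clone or a pool, or whether arrays of a group came from separate cultures, and p-values therefore cover only array-to-array spread that could be technical. GUCY1B3 (listed under its current symbol GUCY1B1) read 8.10, 8.18 and 8.40 in overexpression and 7.45, 7.70 and 7.49 in control cells (limma, adjusted p = 0.00431).

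Interleukin 1 alpha and beta and interleukin 33 signal through receptors that recruit the adaptor MYD88 and IRAK kinases and switch on NF-kB, and the antagonist made from IL1RN occupies the interleukin 1 receptor without signalling. Interleukin 6-type cytokines share the receptor chain gp130, encoded by IL6ST, and act through JAK kinases and STAT3. Colony-stimulating factors direct the growth of macrophages and granulocytes. Interleukin 1 is a known inducer of IL6, LIF, CSF3 and the chemokine CXCL8 in astrocytic and glioblastoma cells, and glioblastoma lines are known to secrete several of these proteins themselves.

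Values are log2 RMA expression values, and differences are overexpression minus control on that scale. In limma over all 15823 genes that exceeded the array median on at least 3 of 6 arrays, 1727 genes (10.9%) passed an adjusted p of 0.05, 1010 of them higher (6.38%) and 717 lower (4.53% of tested genes). Control array 3 stood apart from the other controls: over tested genes, whose values are not independent of each other, its Pearson correlations with control arrays 1 and 2 were 0.989 and 0.987, while those arrays correlated at 0.995 with each other. Its correlations with the overexpression arrays were as high (0.987 to 0.989), and control arrays 1 and 2 reached 0.982 to 0.986 with them. Without it 3630 genes (22.9%) passed, 1577 of them lower (9.97%) and 2053 higher, so results that change with that array are given with and without it. The 9 listed glial and glioblastoma line markers were uneven. Vimentin (VIM) and CD44 read between 12.04 and 12.19 and between 10.35 and 10.63, against array medians of 4.97 to 5.03. GFAP read between 5.60 and 5.89, OLIG2 between 6.41 and 6.70 and NES between 6.58 and 7.20. The others lay nearer the medians: SOX2 at 5.22 to 5.39, S100B at 5.31 to 5.56, CHI3L1 at 5.23 to 5.50 and CDKN2A at 5.14 to 5.29. Of 8 myeloid markers, 4 passed the filter and 0 the threshold (limma, 0 also at an unadjusted p under 0.05 and 0 with an ordinary test). The sum of the 8 myeloid log2 values lay between 38.3 and 39.4 on the overexpression arrays and between 38.5 and 39.3 on the controls. PTPRC, the leukocyte antigen CD45, was the dimmest of them at 3.39 to 3.44. By contrast, 3 of the 8 (ITGAM, TYROBP and SPI1) exceeded the array median on every array.

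None of the measured cytokines passed the test with all arrays, and the controls themselves differed widely. Of the 9 measured genes 6 passed the filter (IL1B, IL6, IL11, LIF, CSF1 and CSF3), and 0 of these 6 passed the threshold, against 10.9% of all tested genes. In the fit without a filter 0 of 9 passed, against 7.14%. At an unadjusted p under 0.05, 1 of the 6 (IL6) was lower, against 25.0% of tested genes in either direction, and an ordinary equal-variance test called 0, against 2.63%. The median difference of the 6 was -0.23, against 0.02 over all tested genes. In all 9 measured genes control array 3 was the lowest of the controls, which held for 36.0% of all genes with a probe set, and in all 9 the range over the controls was greater than the difference between the groups, which held for 76.7%. In 6 of the 9 that array was the lowest of all 6 arrays, against 21.7%. Because these are bulk cultures, fewer cells expressing a cytokine and less RNA per cell cannot be told apart.

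**Figure D1:**
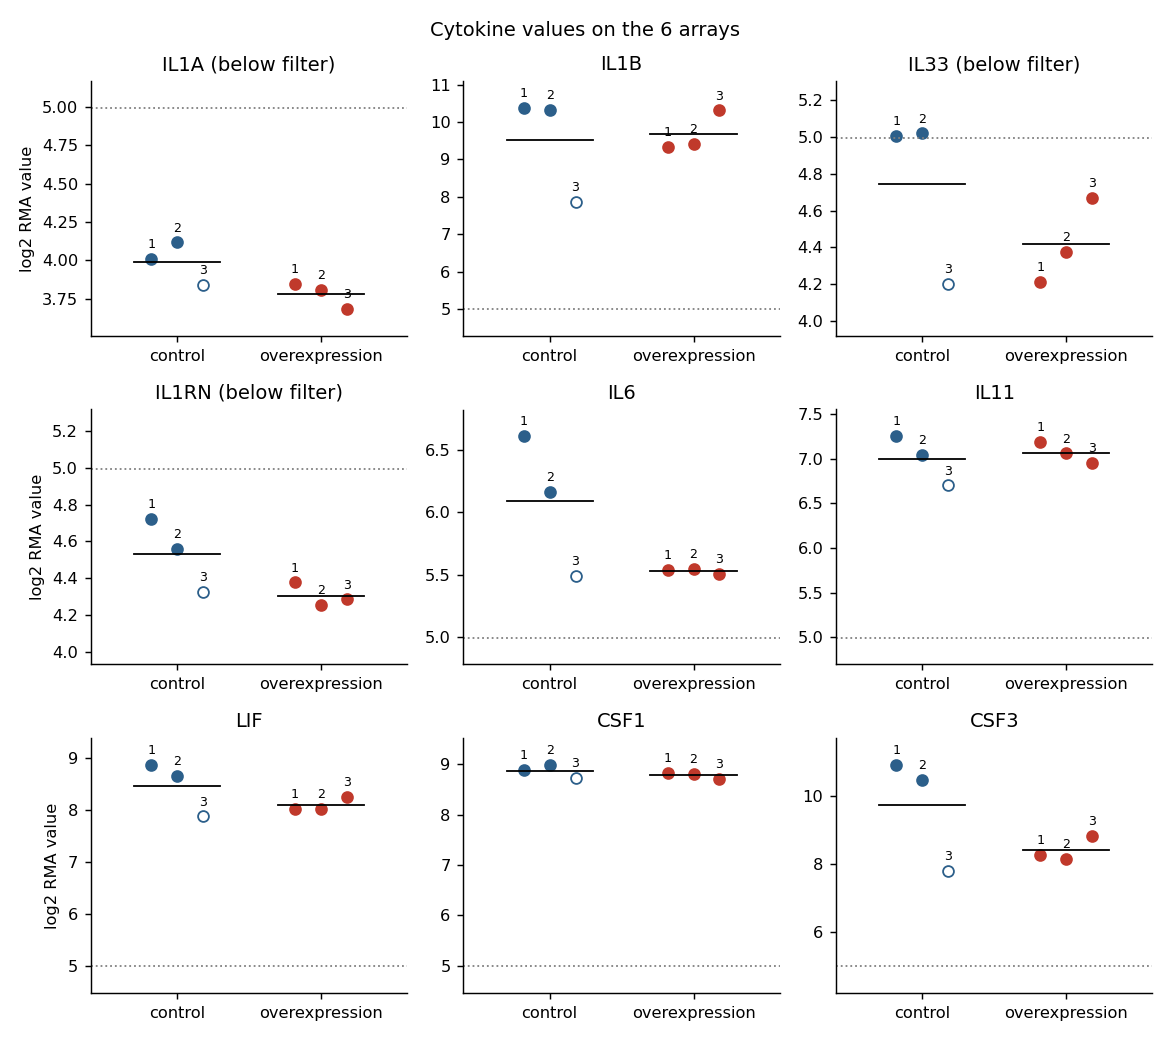
Log2 RMA values (vertical axis, a separate scale in each panel) of the 9 measured cytokines on 3 control arrays (blue, array 3 open) and 3 overexpression arrays (red), with array numbers, group means as bars and the mean of the array medians dotted. Control array 3 lies below control arrays 1 and 2 in every panel, most widely for CSF3 (7.78 against 10.91 and 10.47) and IL1B (7.86 against 10.38 and 10.33).

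IL1B, the main secreted form of interleukin 1, had a strong signal on every array but no consistent difference between the groups. Its probe set (TC02002219.hg.1, chromosome 2) read 9.34, 9.41 and 10.31 in overexpression and 10.38, 10.33 and 7.86 in the controls. Control arrays 1 and 2 lay close together above all overexpression arrays, though control array 2 only barely above overexpression array 3 (10.327 against 10.309). Control array 3 lay below all overexpression arrays, at -1.83 relative to the overexpression mean. IL1B averaged 9.69 ± 0.54 in overexpression and 9.52 ± 1.44 in control (SD, n = 3 each), which differ by 0.17 with a 95% interval from -1.24 to 1.57 (limma, adjusted p = 0.910). Against control arrays 1 and 2 alone the difference was -0.67 (-1.19 to -0.14), a level 1.59-fold higher in the remaining controls, and it did not pass either (limma, adjusted p = 0.0699). The sign of the IL1B difference thus turned with control array 3.

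The other interleukin 1 genes were dim. IL1A, the cell-associated form, read 3.85, 3.81 and 3.68 in overexpression and 4.01, 4.12 and 3.84 in the controls, below the array median on 6 of 6 arrays. IL33, a nuclear cytokine released from damaged cells, read 4.214, 4.375 and 4.668 against 5.004, 5.017 and 4.205, and exceeded the array median on 1 array. The antagonist IL1RN read 4.38, 4.25 and 4.29 against 4.72, 4.56 and 4.33. For all 3 genes the overexpression arrays lay below control arrays 1 and 2, while control array 3 lay within or beside the range of the overexpression arrays. These genes were left out by the filter, and in the limma fit without it their differences were -0.21 for IL1A (adjusted p = 0.186), -0.32 for IL33 (adjusted p = 0.495) and -0.23 for IL1RN (adjusted p = 0.229). Without the filter and without control array 3, a setting chosen after seeing the data, the differences were -0.28, -0.59 and -0.33 (limma, adjusted p = 0.0260, 0.0111 and 0.0140). IL1A and IL1RN lay below the array medians throughout, and detection of these transcripts was not assessed.

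IL6, the founding gp130 cytokine and a driver of acute inflammation, was lower than in control arrays 1 and 2 on every overexpression array. Its probe set (TC07000137.hg.1, chromosome 7) read 5.53, 5.55 and 5.51 in overexpression and 6.61, 6.16 and 5.49 in the controls. Control arrays 1 and 2 were high and control array 3 lay just under the overexpression arrays, so the groups overlapped by that array alone. Group means of 5.53 ± 0.02 and 6.09 ± 0.56 (SD, n = 3 each) gave a difference of -0.56, with a 95% interval from -1.08 to -0.03. The interval is not adjusted over genes, and the difference did not pass (limma, adjusted p = 0.173). When control array 3 was left out the difference was -0.86, or 1.81-fold lower in overexpression, and passed the threshold (limma, adjusted p = 0.000666). The overexpression arrays and control array 3 lay close to the array medians (4.97 to 5.03), so signal near background may limit this fold. The endothelial marker VWF read 5.34 to 5.47 over the arrays. Detection of IL6 was not assessed.

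LIF, leukemia inhibitory factor, which keeps stem cells undifferentiated and acts through gp130 and LIFR, divided the arrays in the same way at a higher signal. It read 8.02, 8.01 and 8.25 in overexpression and 8.87, 8.65 and 7.87 in the controls. Group means of 8.09 ± 0.13 and 8.46 ± 0.52 (SD, n = 3 each) gave a difference of -0.37 (-0.88 to 0.13; limma, adjusted p = 0.356). Against control arrays 1 and 2 alone LIF was 1.59-fold lower, a difference of -0.67 (limma, adjusted p = 0.000897). IL11, a gp130 cytokine of bone and blood platelet formation, did not share this division. It read 7.19, 7.06 and 6.95 in overexpression and 7.25, 7.04 and 6.70 in the controls, so that control arrays 1 and 2 lay among or just above the overexpression arrays. Its difference was 0.07 (-0.23 to 0.37; limma, adjusted p = 0.810) with all arrays and -0.08 (-0.27 to 0.11; adjusted p = 0.607) without control array 3.

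CSF3, granulocyte colony-stimulating factor, which drives neutrophil production, had the greatest difference of the set. Its probe set (TC17000486.hg.1, chromosome 17) read 8.26, 8.14 and 8.83 in overexpression and 10.91, 10.47 and 7.78 in the controls. Control arrays 1 and 2 lay more than 1 log2 unit above every overexpression array, and control array 3 lay below all of them. CSF3 averaged 8.41 ± 0.37 and 9.72 ± 1.69 (SD, n = 3 each), 2.48-fold lower in overexpression but not past the threshold (difference -1.31, 95% interval -2.90 to 0.27; limma, adjusted p = 0.295). Compared with control arrays 1 and 2 alone CSF3 was 4.86-fold lower, a difference of -2.28 with an interval from -2.70 to -1.86 (limma, adjusted p = 7.84e-05). Without control array 1 the difference shrank to -0.72 (limma, adjusted p = 0.580).

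CSF1, macrophage colony-stimulating factor, was the steadiest of the tested cytokines. It read 8.83, 8.80 and 8.70 in overexpression and 8.88, 8.99 and 8.73 in the controls. CSF1 averaged 8.78 ± 0.07 in overexpression and 8.87 ± 0.13 in control (SD, n = 3 each), and the difference was -0.09 (-0.26 to 0.08; limma, adjusted p = 0.545), or -0.16 (adjusted p = 0.114) without control array 3. The interval without that array ran from -0.30 to -0.01.

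**Figure D2:**
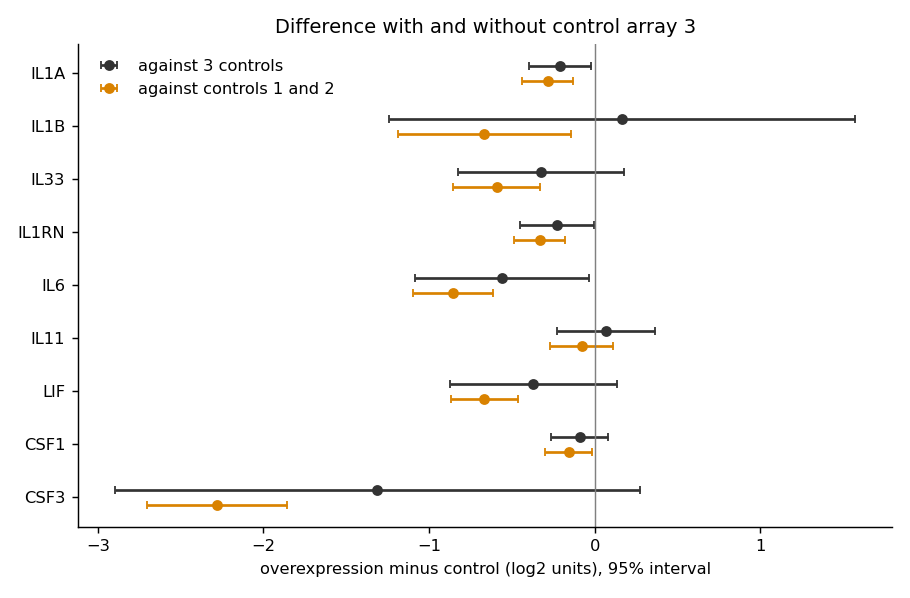
Overexpression minus control in log2 units (horizontal axis) for each measured cytokine, with 95% limma intervals that are not adjusted over genes, against 3 controls (black) and against control arrays 1 and 2 (orange). IL1B moves from 0.17 to -0.67 and CSF3 from -1.31 to -2.28, whereas CSF1 and IL11 stay within 0.16 of 0.

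Without control array 3, 3 of the 6 tested cytokines passed the threshold (CSF3, IL6 and LIF), all lower, against 9.97% of tested genes called lower. In the fit without a filter, where 6.44% of genes were called lower, 6 of 9 passed and all 6 were lower, adding IL1A, IL33 and IL1RN. Limma with array weights, which gave control array 3 the lowest weight (0.297), called CSF3 (adjusted p = 0.0153), IL6 (0.00597) and LIF (0.0310), against 8.82% of tested genes called lower. The weights were estimated from these same arrays, so that fit is not separate evidence from leaving out control array 3. On 8 of the 9 measured genes, IL11 being the exception, every overexpression array lay below control arrays 1 and 2, which held for 16.8% of all genes with a probe set. With all 3 controls this count was 0 of 9, against 10.0%. For IL1B the margin was narrow, with overexpression array 3 at 10.309 and control array 2 at 10.327. All 9 differences were negative without control array 3, against 42.3% of genes. Since that array was the lowest control in all 9, leaving it out could only lower these differences, and 7 were negative with it. The cytokines also varied together over the arrays, so these counts are not of independent genes.

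The spread among the control arrays was wide for all tested cytokines except CSF1. Over the tested genes the median range of the 3 controls was 0.16, and over the 6 tested cytokines it was 1.06. CSF3, with a range of 3.13, ranked 2 of 15823 tested genes and IL1B, with 2.52, ranked 5. IL6 (1.12) ranked 34, LIF (0.99) ranked 55 and IL11 (0.55) ranked 493, whereas CSF1 (0.26) ranked 3920. Between control arrays 1 and 2 alone the median distance was 0.21 for the 6 cytokines and 0.08 for all tested genes. On the overexpression arrays the median range was 0.24 for the cytokines and 0.11 for all tested genes, and array 3 was the highest of these arrays for IL1B, IL33, LIF and CSF3. Whether control array 3 differed in its culture, its RNA or its hybridisation was not tested, and the labels give no batch.

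**Figure D3:**
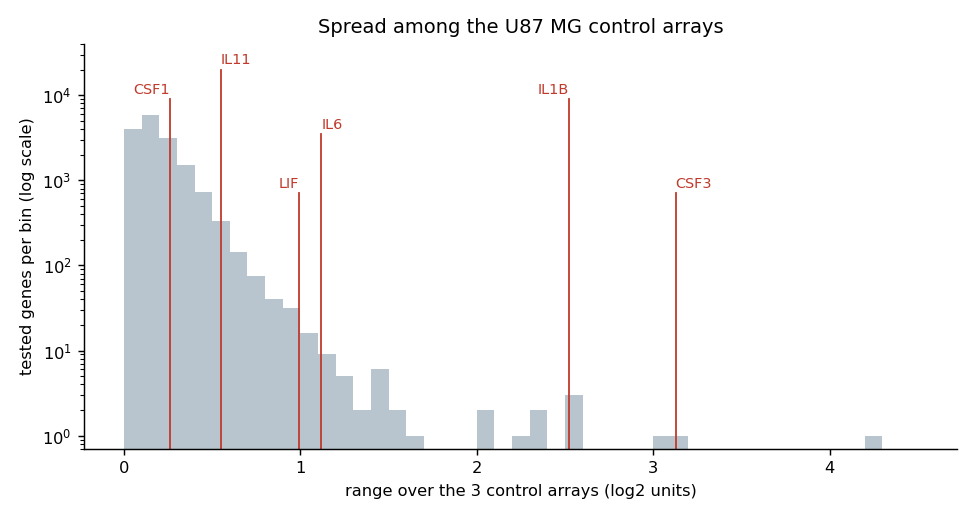
Number of tested genes (vertical axis, log scale) by the range of their values over the 3 U87 MG control arrays (horizontal axis, log2 units, bins of 0.1), with the 6 tested cytokines marked by red lines whose heights carry no value. CSF3 (3.13) and IL1B (2.52) lie in the far tail, CSF1 (0.26) in the bulk.

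CSF3 had the greatest range over the 6 arrays, and the other cytokines were compared with its pattern. Pearson's r with CSF3 over the 6 arrays was 0.996 for LIF, 0.959 for IL33, 0.948 for IL6 and 0.913 for IL1RN. It was 0.766 for IL1B, 0.751 for IL1A, 0.728 for CSF1 and 0.554 for IL11. These values describe 6 arrays in 2 groups. Among 168 other tested genes with a range of at least 1 log2 unit, the 5 most like CSF3 were BDKRB1, the inducible bradykinin receptor (r = 0.994), TMEM132A (0.989), CXCL8, interleukin 8 (0.981), TNIP1, which encodes an inhibitor of NF-kB signalling (0.980), and ASS1, argininosuccinate synthase (0.976).

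Among these, CXCL8 read 5.14, 5.28 and 5.43 in overexpression and 9.04, 7.81 and 4.79 in the controls. On control array 3 CXCL8 lay below the array median (4.98), and on the overexpression arrays not far above theirs, so background may limit its differences. BDKRB1 read 7.17, 7.18 and 7.52 against 8.76, 8.46 and 6.68. Control array 3 was the lowest and control arrays 1 and 2 the highest in both genes, a pattern fixed by choosing them for their likeness to CSF3. Their differences were -1.93 and -0.68 with all arrays and -3.14 and -1.32 without control array 3, given as a description with no test.

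**Figure D4:**
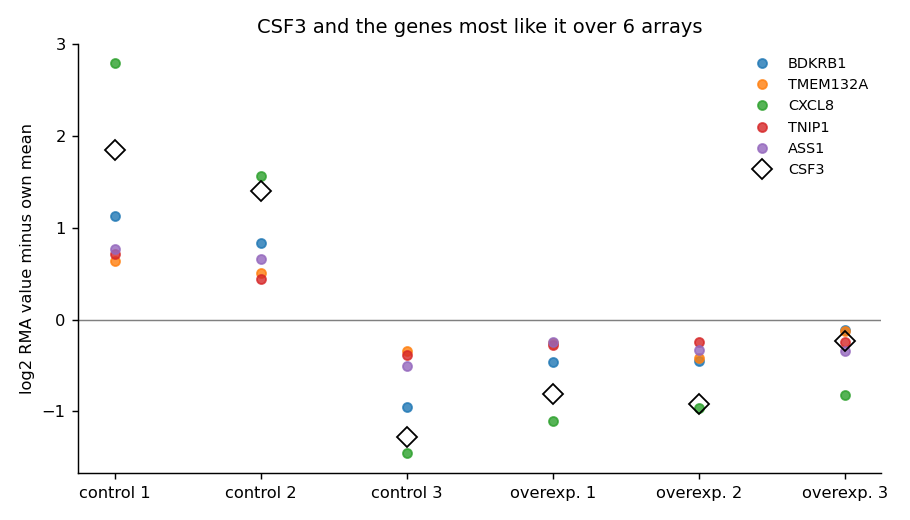
Log2 RMA value minus the gene's own mean over 6 arrays (vertical axis) for CSF3 (open diamonds) and the 5 tested genes with the highest Pearson r to it (dots), by array (horizontal axis). Each gene is high on control arrays 1 and 2 and below its mean on control array 3 and the overexpression arrays.

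Upstream sequence is shown for the pair of most variable tested cytokines with an entry in the RefSeq promoter table (GRCh38.p14), IL1B and IL6, and for IL11, which did not follow them. The 250 bases before the annotated start were searched for the NF-kB consensus, for the AP-1 element TGANTCA and for the C/EBP element TTGCNNAA on both strands, and for TATAAA on the strand of the gene; capitals mark each match, and no matches overlapped. The windows are chr2:112836780-112837029 on the minus strand for IL1B, chr7:22726950-22727199 on the plus strand for IL6 and chr19:55370464-55370713 on the minus strand for IL11, written 5′ to 3′ along the gene.
IL1B: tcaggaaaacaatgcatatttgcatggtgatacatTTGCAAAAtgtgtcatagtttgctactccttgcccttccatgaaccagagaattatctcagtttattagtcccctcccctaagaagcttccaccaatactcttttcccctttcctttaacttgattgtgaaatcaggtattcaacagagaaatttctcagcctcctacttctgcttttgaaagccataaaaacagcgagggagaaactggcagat
IL6: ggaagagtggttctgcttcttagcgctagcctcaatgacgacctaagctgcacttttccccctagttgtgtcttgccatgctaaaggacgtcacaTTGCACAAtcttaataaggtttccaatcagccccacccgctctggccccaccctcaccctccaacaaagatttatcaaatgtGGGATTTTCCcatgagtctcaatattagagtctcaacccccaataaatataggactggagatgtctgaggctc
IL11: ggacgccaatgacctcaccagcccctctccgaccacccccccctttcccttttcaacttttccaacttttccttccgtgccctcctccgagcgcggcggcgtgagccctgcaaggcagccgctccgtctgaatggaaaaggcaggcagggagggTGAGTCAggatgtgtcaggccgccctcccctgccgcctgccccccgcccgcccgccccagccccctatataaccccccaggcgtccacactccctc

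The IL6 window held 1 NF-kB match, 73 to 64 bases before the start, and 1 C/EBP match, 155 to 148 bases before it. The IL1B window held a C/EBP match 215 to 208 bases before the start and the IL11 window an AP-1 match 96 to 90 bases before it. Of 27303 promoter windows of this length, 9.57% held the NF-kB consensus, 9.13% the C/EBP element, 6.60% the AP-1 element and 7.18% TATAAA. For 7 listed cytokines, CSF2 among them, a promoter entry was found. The NF-kB consensus was present in 1 of these, the C/EBP element in 2, the AP-1 element in 3 and TATAAA in 1. A match describes letters in the reference and is not a measured binding site.

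Other interleukin 1 family ligands were mostly dim, and 1 of 7 passed the filter. This was IL36RN, the antagonist of interleukin 36 receptors, with a difference of -0.02 (limma, adjusted p = 0.926). IL36B, an agonist of that receptor singled out after its values were seen, read 4.20, 4.07 and 4.01 in overexpression and 5.78, 5.25 and 4.53 in the controls. All its overexpression arrays lay below all its controls, and it fell by 1.09 in the limma fit without a filter (adjusted p = 0.0487). Its overexpression values and control array 3 lay below the array medians, and its range over the controls (1.25) exceeded the difference.

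Receptors showed small differences, and those that passed belonged to the gp130 family. Of 6 tested receptors for interleukin 6-type cytokines, 0 rose and 2 fell, against 4.53% of tested genes called lower. IL6ST, which encodes gp130 itself, read 10.08, 10.20 and 10.21 in overexpression and 10.40, 10.53 and 10.42 in the controls, and fell by 0.29 (limma, adjusted p = 0.0244). OSMR, the oncostatin M receptor, read 8.29, 8.32 and 8.31 against 8.54, 8.63 and 8.48 and fell by 0.25 (adjusted p = 0.0296). The ordinary equal-variance test called neither gene. The groups did not overlap for either gene, and control array 3 lay near the other controls. LIFR differed by 0.01 and IL6R by -0.01. The OSMR call ended on leaving out any 1 array except control array 3, and the IL6ST call on leaving out any 1 overexpression array or control array 2.

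IL1R1, the signalling receptor for interleukin 1, read 5.94, 5.96 and 6.04 in overexpression and 6.56, 6.56 and 5.72 in the controls, with control array 3 the lowest and control arrays 1 and 2 the highest, as for LIF and CSF3. It did not pass with all arrays (difference -0.30; limma, adjusted p = 0.419) and was 0.58 lower without control array 3 (difference -0.58, adjusted p = 0.000203). Of 3 tested interleukin 1 family receptors 0 passed in limma, 0 also at an unadjusted p under 0.05. Of 4 tested receptors for colony-stimulating factors 0 passed, 0 at an unadjusted p under 0.05, and CSF1R, the receptor of CSF1, read between 5.78 and 5.89 on all arrays (difference 0.06; adjusted p = 0.526).

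In the signalling relay behind the interleukin 1 receptor, MYD88 was the one gene whose call held in every alternative run. Of 10 tested genes of MYD88 signalling 2 rose and 1 fell, against 6.38% and 4.53% of all tested genes, with a list median of 0.08 against 0.02 for all tested genes. MYD88, the adaptor of the receptor, read 8.68, 8.57 and 8.67 in overexpression and 8.05, 8.02 and 8.01 in the controls. It rose by 0.61, or 1.53-fold (limma, adjusted p = 0.000698), with no overlap and with control array 3 beside the others, and it passed on leaving out any 1 array. TRAF6, the ubiquitin ligase downstream of MYD88, rose by 0.31 (adjusted p = 0.0396). IRAK2, a kinase of the same complex that is itself inducible, read 7.32, 7.47 and 7.49 against 8.72, 8.38 and 7.72 and fell by 0.85 (adjusted p = 0.0380). The calls of TRAF6 and IRAK2 ended on leaving out any 1 array except control array 3, under cyclic loess (adjusted p = 0.0508 and 0.0558), and without the filter (0.0520 and 0.0568). TRAF6 also missed the threshold after centring the arrays on their medians (0.0835). The ordinary test called neither (0.169 and 0.228). TOLLIP, an adaptor that restrains this pathway, did not pass with all arrays (difference 0.24; limma, adjusted p = 0.0531) and was higher without control array 3 (difference 0.28, adjusted p = 0.00954).

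Of 12 tested JAK-STAT genes 0 passed (limma; 1, SOCS3, was lower at an unadjusted p under 0.05, against 25.0% of all tested genes in either direction). SOCS3, the STAT3-induced feedback inhibitor of gp130 signalling, read 7.30, 7.37 and 6.99 in overexpression and 7.76, 7.65 and 7.26 in the controls, a difference of -0.34 (adjusted p = 0.174). It was lower without control array 3 (difference -0.48, adjusted p = 0.00850). Without that array 3 of the 12 were lower, against 9.97% of all tested genes. STAT3 itself differed by -0.06. Of 9 tested STAT3 target genes 0 passed and 3 were lower at an unadjusted p under 0.05, against 25.0% in either direction. MYC came nearest, with a difference of -0.23 (limma, adjusted p = 0.0700), and it passed without control array 2 (0.0418), without control array 3 (0.0452), with array weights (0.0174) and after centring the arrays (0.0497). In the fit that left out control array 3, 4 of the 9 were lower, against 9.97%.

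Known targets of interleukin 1 included the widest differences around these cytokines. Their list was chosen with earlier results of these data known, so its counts and median are a description and not a test. Of 13 tested targets 0 rose and 3 fell, against 6.38% and 4.53% of all tested genes. These were the collagenase MMP1, the cyclooxygenase PTGS2 and the stromelysin MMP3, and the list's median difference was -0.28 against 0.02 for all tested genes. PTGS2 read 4.80, 4.95 and 5.07 in overexpression and 8.90, 7.90 and 5.82 in the controls. Overexpression arrays 1 and 2 lay below their array medians and array 3 just above its own. PTGS2 thus passed the filter mainly through its controls and was not tested where all 6 arrays had to exceed the median. CCL2, another of the 13, lay below the array medians on overexpression arrays 2 and 3. MMP1 fell by 2.92 (limma, adjusted p = 0.000332), PTGS2 fell by 2.60 (adjusted p = 0.0350) and MMP3 fell by 2.37 (adjusted p = 0.0157). Control array 3 was the lowest control in 12 of the 13, with a median of -0.74 relative to control arrays 1 and 2, against 36.2% of tested genes. MMP1 read 7.03, 7.21 and 7.06 in overexpression and 10.46, 10.17 and 9.43 in the controls, so control array 3 still lay above every overexpression array, and that call held on leaving out any 1 array. The PTGS2 call ended on leaving out any 1 overexpression array or control array 1 or 2, and that of MMP3 on leaving out any 1 overexpression array. PTGS2 also missed the threshold without the filter (adjusted p = 0.0531), and both genes with robust eBayes (0.113 and 0.0605) and with the ordinary test (0.227 and 0.163). With control array 3 left out, 10 of the 13 targets were lower, against 9.97% of all tested genes, and the differences were -3.21 for MMP1, -3.46 for PTGS2 and -2.95 for MMP3. The 5 genes past the threshold among receptors and MYD88 signalling passed without that array as well, IRAK2 with a difference of -1.12 (limma, adjusted p = 9.7e-05).

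Of 5 other tested ligands (OSM, CTF1, IL27, IL34 and IL3) 0 passed and 0 had an unadjusted p under 0.05, OSM having the smallest (difference 0.12; limma, adjusted p = 0.393). Of 9 tested genes for processing and release of these cytokines 0 passed, 1, S100A13, was higher at an unadjusted p under 0.05 (difference 0.21; adjusted p = 0.119). S100A13 passed without control array 3 (difference 0.27, adjusted p = 0.0143) and with array weights (0.0499). CASP1, which cleaves the IL1B precursor, had a difference of -0.12 (limma, adjusted p = 0.209). Its overexpression arrays (4.955, 4.9025 and 4.9572) all lay below their array medians, so CASP1 passed the filter only through its controls. Of 9 tested regulators of AU-rich mRNAs, proteins that control the decay of cytokine messages, 0 passed and 2 were lower at an unadjusted p under 0.05, against 25.0% in either direction. MAPKAPK2, a kinase that stabilises these messages, had the smallest p (difference -0.32; adjusted p = 0.103), and 4 were lower without control array 3, against 9.97% of tested genes. ZFP36, the decay factor tristetraprolin, read 8.23, 8.10 and 8.32 in overexpression and 8.64, 8.73 and 7.59 in the controls, with control array 3 the lowest as for CSF3 (difference -0.11; limma, adjusted p = 0.860). It was lower without that array (difference -0.47, adjusted p = 0.00189).

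**Figure D5:**
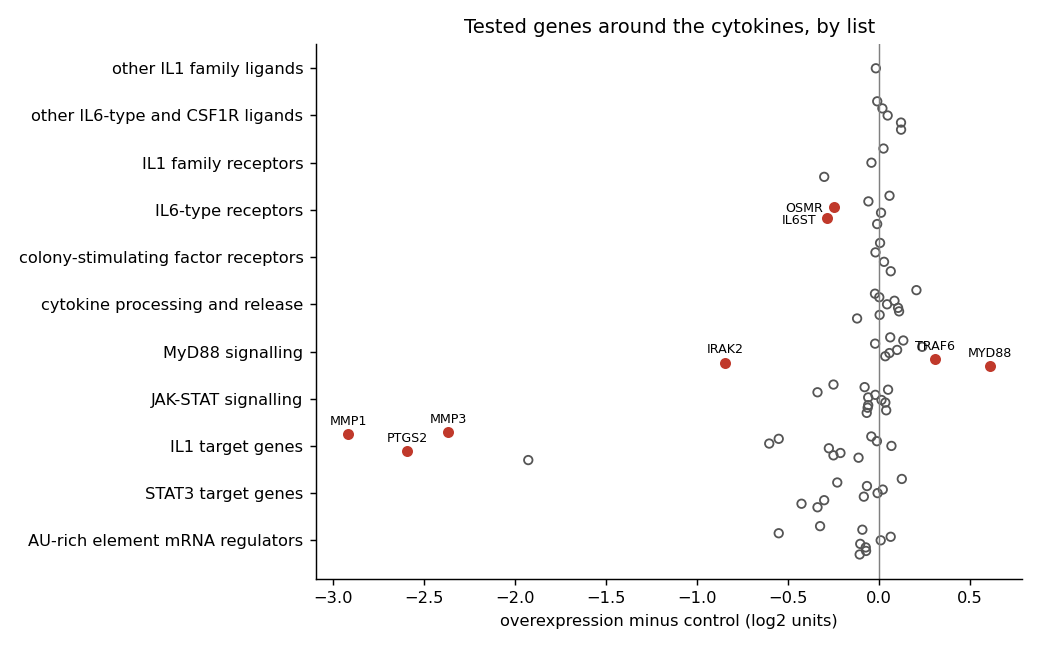
Overexpression minus control in log2 units (horizontal axis) for the tested genes of each list around the cytokines (rows), from the fit with all 6 arrays; filled red points passed an adjusted p of 0.05 and are named. MYD88 (0.61) and TRAF6 (0.31) lie to the right, and MMP1 (-2.92), PTGS2 (-2.60) and MMP3 (-2.37) far to the left.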

How the data were processed

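The values are the log2 signals that the authors deposited for 70523 features on 6 arrays; per the labels and the submitters' processing notes they came from RMA in Affymetrix Expression Console, which corrects background, quantile-normalizes and summarises probes. Quantile normalization fixes each array's distribution, so changes in total RNA are not seen. The version, the library files and the array's genome build are not given in the sources used here. No scanner files or detection calls were used, and the number of arrays limits precision.

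The platform annotation gave 1 symbol to 23781 probe sets, updated through RefSeq (GRCh38.p14). The probe set with the highest mean was kept per gene (22411 genes), and genes above the array median on at least 3 arrays were tested (15823). Overexpression was compared with control in limma 3.58.1 (R 4.3.3, lmFit and eBayes, no covariate, 4 residual and 4.38 prior degrees of freedom), with p-values adjusted over these genes (Benjamini-Hochberg, 0.05). The procedure was also run on simulated data with independent noise for each gene and no outlying array, so that run does not cover control array 3. Python 3.11.15, pandas 2.3.3 and matplotlib 3.10.9 made the tables and plots.

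The members, lists and tests were chosen with earlier results of these data known. Named genes were all members, up to 4 genes past the threshold per list or else the one with the smallest p, and the 5 genes most like the most variable member; others were chosen after their values were seen. Alternatives were array scaling, the filter, the probe set rule, the variance model, array weights, a replicate block and leaving out each array.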

Additional observations from a re-analysis of the deposited data

How the results depend on the processing

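The lists around the cytokines had 8 calls (2 higher, 6 lower). Centring the arrays on their medians gave 1 higher and 7 lower, with TRAF6 lost and MYC gained (limma, adjusted p = 0.0497). There were 5 calls without the filter and 3 with the ordinary equal-variance test, of which MYD88 and MMP1 were among the 8. Over all tested genes that test called 416, against 1727 in the reported fit. Array weights gave 3240 calls over all genes, 3 among the cytokines and 21 in the lists, and turned IL1B to -0.17 and IL11 to -0.0744. With a replicate block 1028 genes passed (589 higher, 439 lower), 0 of them cytokines. OSMR, IRAK2 and PTGS2 then had limma adjusted p of 0.0627, 0.0822 and 0.0678, and SOCS3 passed at 0.0424. Deviations of same-numbered arrays from their group means correlated at 0.282, -0.0971 and -0.241, and those of other pairs at -0.392 to 0.336. With 3 arrays per group these values do not show pairing and cannot exclude it. Leaving out each array in turn gave 549 to 3630 calls over all genes, 0 to 3 among the cytokines and 2 to 27 in the lists, the highest of each without control array 3. IL1B then lay between -0.67 and 0.60 (-0.14 without overexpression array 3), IL11 between -0.0775 and 0.20, and IL36RN between -0.0843 and 0.0597. Without the filter and control array 3, a setting added after seeing the data, 6 cytokines were called. The causes were not tested. No cytokine was called under centring, cyclic loess, a stricter filter, no filter, averaged probe sets, the ordinary test, robust eBayes or the block. The other 4 tested cytokines kept a negative difference in every setting run. The 3 dim cytokines were run only without the filter, with and without control array 3, and their differences were negative there. Signal near background limits IL1A, IL33 and IL1RN, and may limit IL6 on the overexpression arrays and control array 3. Having 3 arrays per group limits all values.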

Other observations

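TNFAIP6, a hyaluronan-binding protein induced by interleukin 1, lay below the filter on dim probe sets and was singled out after its values were seen. It read 4.53, 4.46 and 4.47 in overexpression and 5.29, 5.14 and 4.90 in the controls, so that the groups did not overlap and control array 3 lay above every overexpression array. It fell by 0.63 in the limma fit without a filter (adjusted p = 0.00941). IL18, an interleukin 1 relative matured by caspase 1, lay below the array median on every array and was left out by the filter. It read 4.31, 4.25 and 4.14 against 4.42, 4.54 and 4.39 and did not pass in the limma fit without a filter (difference -0.22, adjusted p = 0.0943). It passed without the filter and without control array 3, a setting added after seeing the data (difference -0.25, limma adjusted p = 0.0483). Nestin (NES), a neural progenitor filament protein among the glial markers, rose by 0.53 (limma, adjusted p = 0.00125), with control array 3 beside the other controls.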
